A study of Homo sapiens with 12 samples.

Results

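The genes described here are 10 whose transcription is a common readout of the ERK kinases: the phosphatases DUSP4, DUSP5 and DUSP6, the Sprouty and SPRED inhibitors SPRY2, SPRY4, SPRED1 and SPRED2, and the transcription factors ETV4, ETV5 and EGR1. They were chosen as a set with earlier results of these data known and were taken by gene symbol, and all 10 were among the 19447 symbols of the count table. Counts were above 0 in at least 1 library for 9 of them, and DUSP4 was at 0 in every library.

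Messenger RNA was sequenced in 12 libraries of human K562 cells, 3 in each of 4 groups. K562 is a line from a chronic myeloid leukemia in blast crisis that carries the BCR-ABL fusion kinase, the target of the inhibitor imatinib (IM). The K562 group was the untreated parent line, and K562+L was the same line treated with 6 µM lycorine, an alkaloid of Amaryllidaceae plants. K562/IM was a line derived from K562 by stepwise exposure to imatinib and kept in 5 µM of it, and K562/IM+L was the label of 3 libraries of that line treated with 6 µM lycorine. The sample labels name the cell line as K562 for all 12 libraries, and the resistant line is told from the parent by the treatment label alone. The length of the lycorine treatment before sequencing, and whether imatinib was in the medium at that time, were not given in the sources used here. The resistant cells were a single derived line, so a difference between the lines is a difference between these 2 cell populations. Nothing states that the libraries of a group came from separate cultures, so the p-values measure the spread between libraries, which may be technical.

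ERK is the last kinase of the RAS-RAF-MEK-ERK cascade, which receptors and fusion kinases such as BCR-ABL switch on. Active ERK drives transcription of early response genes, and some of these encode proteins that shut the cascade down again. The DUSP proteins remove phosphate from ERK, the Sprouty and SPRED proteins act above it near RAS and RAF, and the ETV and EGR factors carry the signal on to further genes. Transcript levels of such genes were measured here, and phosphorylation of ERK was not.

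Promoter sequence shows what letters sit ahead of these genes. Promoters of 6 of the 10 genes (EGR1, SPRY2, SPRY4, SPRED1, SPRED2 and DUSP6) were read from a table of RefSeq promoters (GRCh38.p14, the same assembly as the build hg38 in the submitters' processing notes), and those of DUSP4, DUSP5, ETV4 and ETV5 were not analysed here. The 250 bases before each transcription start were searched on both strands for 6 motifs: the CArG box read by serum response factor, the ETS core CCGGAA read by ETS factors, the octamer TGAATGNA read by the repressor CIC, the AP-1 site TGANTCA, the CRE core TGACG and the EGR site GCGNGGGCG read by EGR1 itself. Over 35116 promoter windows of the same length, 1.16% held a CArG box, 14.5% an ETS core, 3.25% the CIC octamer, 6.57% an AP-1 site, 21.2% a CRE core and 8.41% an EGR site. The 6 genes had 9 windows. The 3 windows that held any of the motifs are given 5′ to 3′ on the strand of the gene, with every match in capitals whichever strand it was read on. EGR1 (chr5:138465229-138465478, plus strand) is shown for its CArG boxes, 105 and 83 bases before the start, each of which reads as a CArG box on both strands. It also held CRE cores 135 and 66 bases before the start and an EGR site at 198.
EGR1: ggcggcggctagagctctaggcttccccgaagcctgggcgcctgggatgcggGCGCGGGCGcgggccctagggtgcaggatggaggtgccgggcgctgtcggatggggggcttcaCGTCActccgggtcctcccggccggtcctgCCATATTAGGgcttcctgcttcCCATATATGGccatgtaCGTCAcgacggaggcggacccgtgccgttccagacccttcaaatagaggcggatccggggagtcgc
SPRY4 (chr5:142324248-142324497, minus strand, within introns of longer annotated transcripts) is shown for its EGR site 195 bases before the start and its CRE core at 68. The window of SPRY2 (chr13:80341127-80341376, minus strand) belongs to the farthest upstream of its starts, and held a CRE core at 190, an ETS core at 142 and EGR sites at 134 and 41.
SPRY4: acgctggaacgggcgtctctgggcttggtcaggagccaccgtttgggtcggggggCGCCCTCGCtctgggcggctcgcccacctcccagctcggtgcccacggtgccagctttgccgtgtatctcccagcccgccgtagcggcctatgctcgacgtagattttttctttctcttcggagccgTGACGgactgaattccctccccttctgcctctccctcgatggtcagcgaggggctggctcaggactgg
SPRY2: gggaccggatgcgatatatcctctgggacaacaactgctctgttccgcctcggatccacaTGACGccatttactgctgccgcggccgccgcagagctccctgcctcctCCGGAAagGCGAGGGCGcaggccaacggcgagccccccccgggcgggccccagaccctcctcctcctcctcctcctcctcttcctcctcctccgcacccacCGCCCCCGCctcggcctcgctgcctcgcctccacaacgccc
No match overlapped another. The other windows of SPRY2, and those of SPRED1, SPRED2 and DUSP6, held none of these letters, and the CIC octamer and AP-1 site were found in no window of the 6 genes. A match is a run of letters and does not show that a factor binds there.

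**Figure D1:**
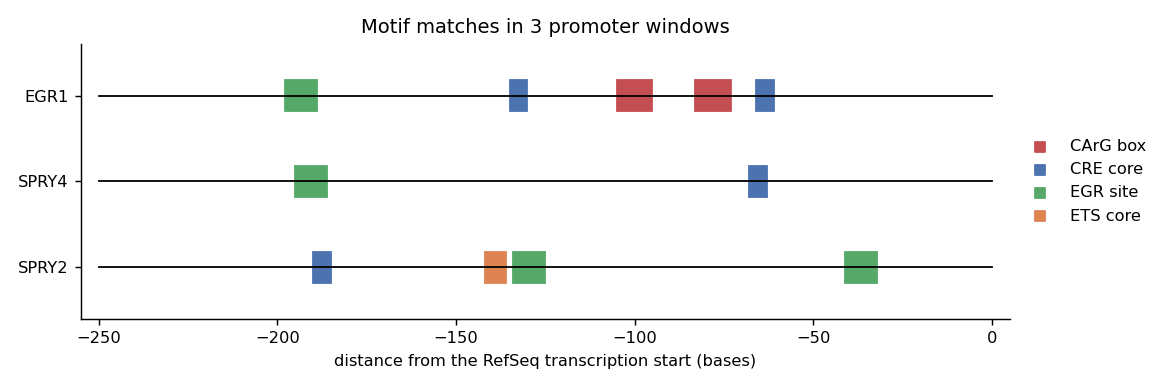
Positions of motif matches in the 250 bases before the transcription start of EGR1, SPRY4 and SPRY2, with distance from the start in bases on the horizontal axis and the motif given by colour. These are the 3 of 9 windows searched that held any match. EGR1 holds both CArG boxes, and each of the 3 holds at least 1 CRE core and 1 EGR site.

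Total counts ran from 82779101 to 87381704 in K562, 88481508 to 107344598 in K562+L, 75935140 to 98445779 in K562/IM and 75093844 to 92154227 in the labelled K562/IM+L libraries. All 9 defining genes of the line, among them GATA1 and BCR, were above 0 in every group. The number that the study's own plots give the K562/IM+L group differs from the one in the sample titles, so these are named by their label throughout, as the labelled K562/IM+L libraries, and each pairwise result that rests on them is also given against K562. They stood apart from the rest in erythroid genes. The summed level of 12 erythroid maturation genes (globins, ALAS2, AHSP and others), in CPM (counts scaled to a fixed library total), was 6501 to 9239 in K562, 4656 to 5357 in K562+L, 2924 to 3099 in K562/IM and 40321 to 57518 in the labelled K562/IM+L libraries, and all 12 were higher in the latter than in either control. The globin gene HBG2 had the largest mean of the 12 in each group. Against K562, 8 of the 12 were lower and 1 higher in K562+L, and 10 lower and 1 higher in K562/IM. HBE1 went against the sum, with a mean of 97.6 CPM in K562 and 544 in K562/IM. ABCB1, which encodes the drug efflux pump P-glycoprotein, had a mean of 1.76 CPM ± 0.093 (SD, n = 3) in K562, 4.28 ± 0.759 in K562+L, 23.6 ± 2.07 in K562/IM and 0.752 ± 0.29 in the labelled K562/IM+L libraries. Megakaryocyte genes summed to 7.67 to 9.77, 8.5 to 8.62, 194 to 215 and 25.9 to 28.4 CPM in the groups in the same order (K562, K562+L, K562/IM, labelled K562/IM+L), with PPBP at 0 in every group. T and B cell genes summed to 2.18 to 3.5, 0.543 to 1.36, 23.9 to 25.7 and 0.83 to 1.2 CPM with MS4A1 at 0 throughout, monocyte and macrophage genes to 117 to 122, 111 to 131, 177 to 188 and 82.3 to 87.3 CPM with FCN1 at 0 throughout, and fibroblast and epithelial genes to 123 to 133, 106 to 119, 44.7 to 49.7 and 84.8 to 105 CPM. In K562/IM most of the megakaryocyte sum was ITGA2B (mean 186 CPM), and most of the T and B cell sum was CD3D (22). Most of the monocyte and macrophage sum was LYZ (166), and most of the fibroblast and epithelial sum was EPCAM (46.3, and 128 in K562). Of the 3 fibroblast and epithelial genes tested in K562/IM against K562, 2 were higher and 1 lower. What part any of these marker genes, or the cell states they mark, have in the results below was not tested.

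Levels below are CPM scaled by TMM factors over all 12 libraries. A gene passed where edgeR's quasi-likelihood test gave a Benjamini-Hochberg adjusted p under 0.05 over all genes tested, and it was called where its log2 fold change also exceeded 1 in size. In bulk RNA, fewer cells of a kind and less RNA per cell cannot be told apart.

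Lycorine in the parent line was followed by lower transcripts of 5 of the 9 genes tested (ETV4, EGR1, SPRY4, SPRY2 and ETV5), and none was higher. Over all 12927 genes tested, 19% were lower and 18.2% higher, and the median log2 fold change was -0.00 against -0.66 over the 9 genes. ETV4 was the 1 gene called, beside 6.39% of all genes.

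K562/IM cells had higher transcripts than K562 of 5 of the 9 genes tested (DUSP6, DUSP5, SPRY4, SPRY2 and EGR1), and none was lower. Over 13406 genes, 30.1% were higher and 27.1% lower, where the median log2 fold change was 0.04 against 0.44 over the 9 genes. Of these, 4 were called (DUSP6, DUSP5, SPRY4 and SPRY2), beside 19.1% of all genes.

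All 9 genes tested were lower in the labelled K562/IM+L libraries than in K562/IM, and all 9 were called. Over 13727 genes, 33.6% were lower, 33.2% higher and 28.5% called in either direction, where the median log2 fold change was -0.01 against -3.14 over the 9 genes. Against K562, 7 of the 9 were lower (all but DUSP5 and DUSP6) and 6 called, where over 13307 genes 27.8% were lower, 28.2% higher and 23.8% called, with medians of 0.02 over all genes and -1.75 over the 9. With upper-quartile scaling in place of TMM the share of higher genes among all that passed against K562 went from 50.4% to 61.3%, and no gene of the 9 changed its side of the threshold.

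These comparisons share groups: K562 is the control of 3 of them and K562/IM stands in 2, so the same libraries move more than 1 set of values.

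**Figure D2:**
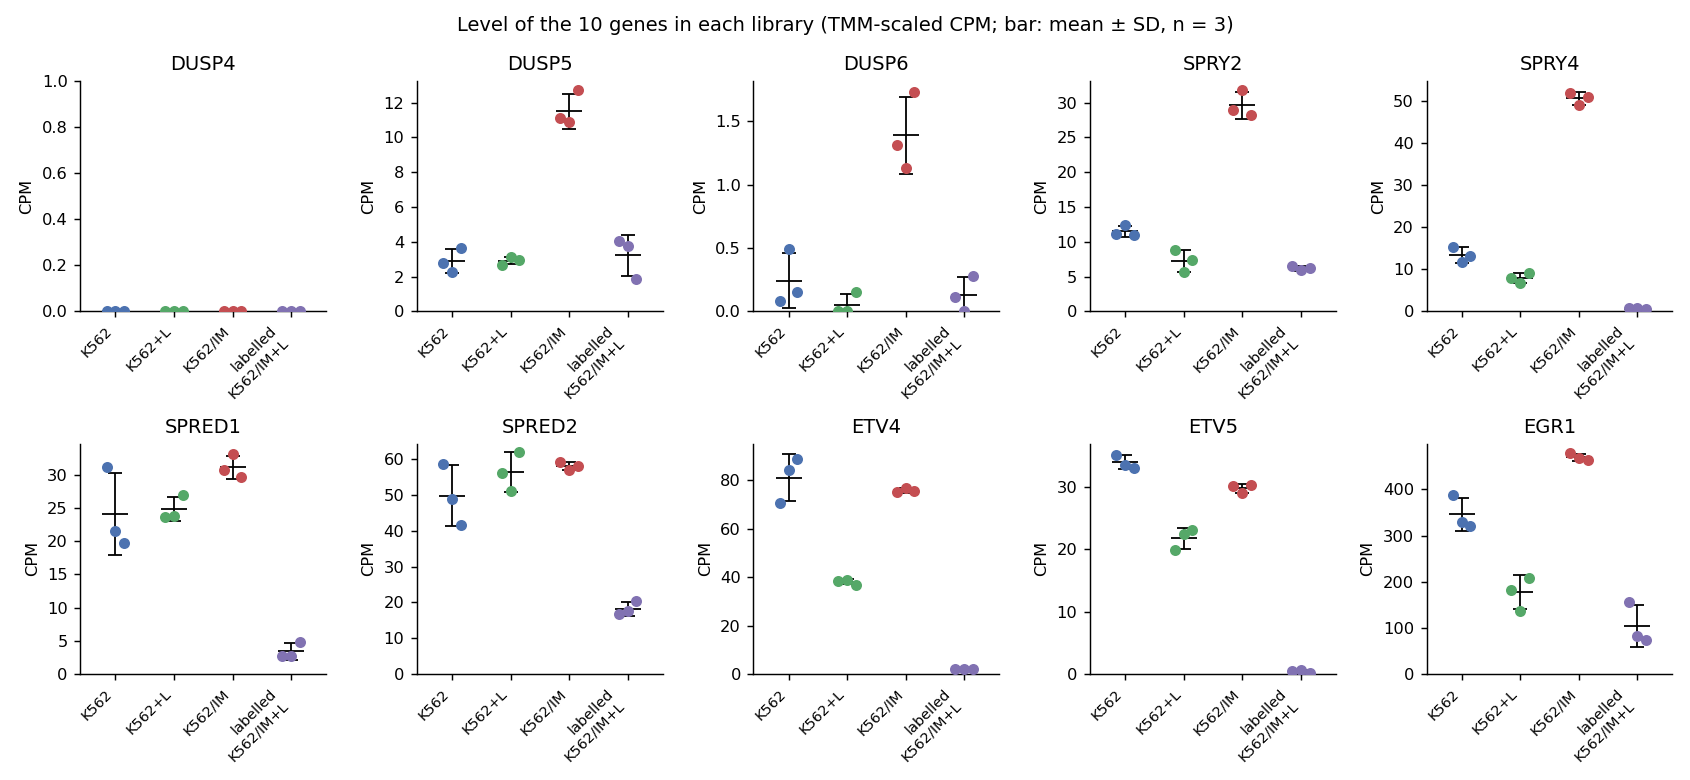
TMM-scaled CPM of the 10 genes (vertical axes, each from 0) in every library of the 4 groups (points), with the mean and SD of 3 libraries as the bar. Every K562/IM library is above all others for DUSP5, DUSP6, SPRY2, SPRY4 and EGR1, and ETV4, ETV5 and SPRY4 sit near 0 in the labelled K562/IM+L libraries.

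**Figure D3:**
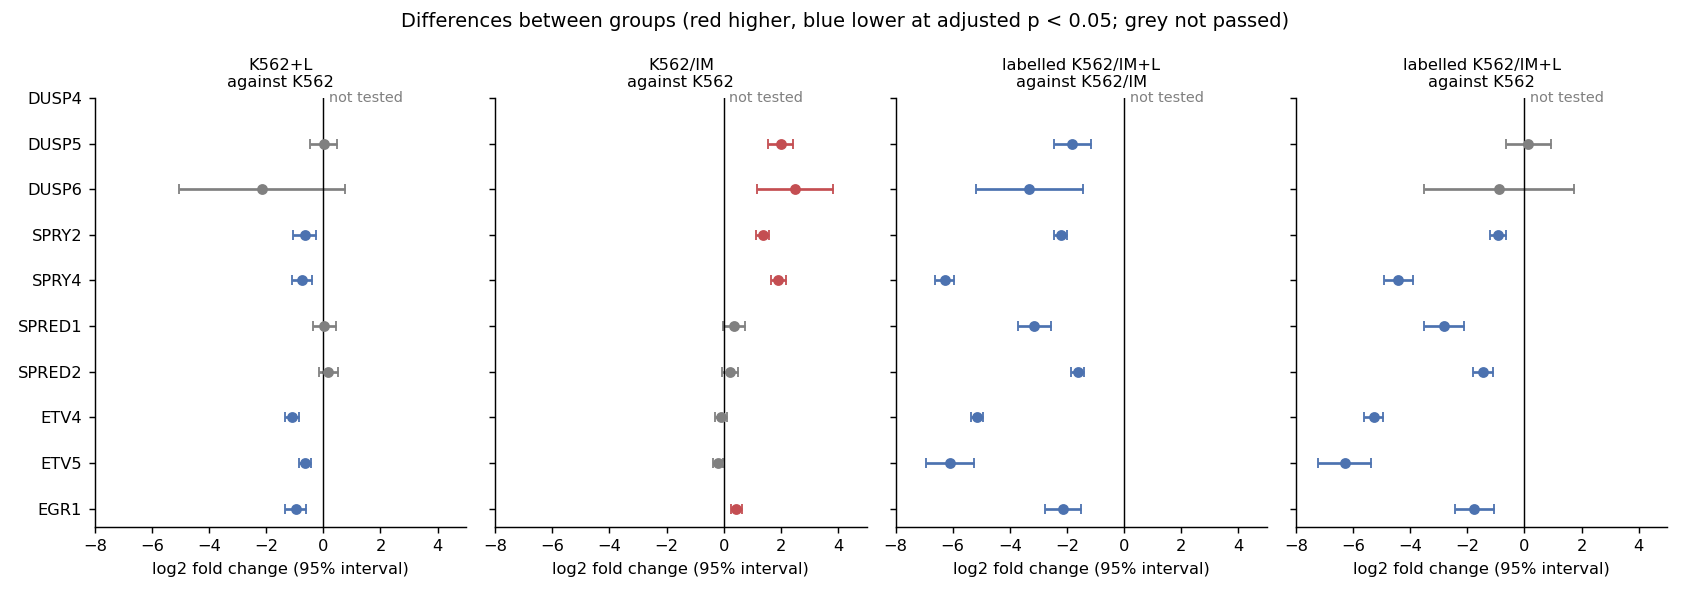
Log2 fold change with its 95% interval for each gene in 4 comparisons, from edgeR's quasi-likelihood fit, with genes that passed in red (higher) or blue (lower) and the others in grey. SPRY4, ETV4 and ETV5 have log2 fold changes between -4.41 and -6.30 in both comparisons of the labelled K562/IM+L libraries, and DUSP6 has the widest intervals.

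The dual-specificity phosphatases bind ERK and remove its activating phosphates, DUSP5 in the nucleus and DUSP6 in the cytoplasm. DUSP4, a nuclear phosphatase of the same family, had no count in any of the 12 libraries, which allows a level of up to 0.02795 to 0.03995 CPM depending on the library (3 counts of its total, covering counting error only). DUSP5 (chr10:110497838-110511544) had 2.81, 2.25 and 3.65 CPM in K562, and 2.69, 3.11 and 2.97 in K562+L. It had 11.1, 10.9 and 12.7 CPM in K562/IM, and 4.04, 3.78 and 1.86 in the labelled K562/IM+L libraries. Every K562/IM library was above every library of the other groups, and those 3 groups overlapped. DUSP5 rose by a log2 fold change of 1.99 (SE 0.19, adjusted p = 9.2e-05) in K562/IM over K562. It fell by 1.82 (SE 0.28, adjusted p = 7.9e-04) from K562/IM to the labelled K562/IM+L libraries. Against K562 its log2 fold change was 0.01 (95% interval -0.48 to 0.49) in K562+L and 0.13 (-0.66 to 0.93) in the labelled K562/IM+L libraries, neither of which passed.

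DUSP6 (chr12:89347232-89353271), the phosphatase most often used as a readout of ERK, was scarce. Its counts were 7, 41 and 12 in K562, 0, 0 and 16 in K562+L, 109, 109 and 185 in K562/IM, and 9, 0 and 26 in the labelled K562/IM+L libraries. In CPM this was 0.0859 to 0.489, 0 to 0.154, 1.13 to 1.73 and 0 to 0.276 in that order. K562/IM was again above all other libraries, and the other groups overlapped. DUSP6 rose in K562/IM over K562 (log2 fold change 2.50, SE 0.58, adjusted p = 0.00713) and fell by 3.32 in the labelled K562/IM+L libraries against K562/IM (SE 0.81, adjusted p = 0.0078). The rise had an adjusted p of 0.0753 with all 12 libraries in 1 fit, the highest of 13 alternatives (from 9.3e-05). Without K562 replicate 2 the rise was 3.52 on the log2 scale (adjusted p = 0.001), and without replicate 3 of the labelled K562/IM+L libraries the log2 fold change against K562/IM was -4.50 (adjusted p = 0.0022). Its log2 fold changes of -2.14 in K562+L (95% interval -5.04 to 0.76) and -0.89 in the labelled K562/IM+L libraries (-3.52 to 1.75) against K562 did not pass. Without K562+L replicate 3, which leaves 2 treated libraries at 0, the former passed at an adjusted p of 0.0391, the lowest of 12 alternatives (up to 0.608). DUSP6 shares 1875 exonic bases with an antisense gene, AC024909.2, and since the strand of the counting was not given, reads of the 2 cannot be told apart.

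The Sprouty proteins are inducible inhibitors of signalling from receptor tyrosine kinases to ERK. SPRY2 (chr13:80335976-80340951) had 11.1, 12.4 and 11 CPM in K562, and 8.87, 5.67 and 7.32 in K562+L. It had 28.9, 31.8 and 28.2 CPM in K562/IM, and 6.58, 5.89 and 6.19 in the labelled K562/IM+L libraries. All libraries of K562/IM lay above K562, and all of K562 above both lycorine groups, which overlapped. SPRY2 was 1.58-fold lower in K562+L than in K562 (log2 fold change -0.66, SE 0.17, adjusted p = 0.0186). It did not pass without K562 replicate 2 (log2 fold change -0.60, adjusted p = 0.0688) or without K562+L replicate 3 (-0.66, adjusted p = 0.0511), in a range of 0.00168 to 0.0688 over 14 alternatives. SPRY2 rose by 1.36 on the log2 scale in K562/IM (SE 0.094, adjusted p = 2.0e-05). It fell by 2.22 in the labelled K562/IM+L libraries against K562/IM (SE 0.095, adjusted p = 1.6e-06) and fell by 0.91 against K562 (SE 0.12, adjusted p = 6.2e-04).

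SPRY4 (chr5:142310427-142326455), whose upstream window with an EGR site and a CRE core is printed above, had 15.4, 11.7 and 13.2 CPM in K562, and 7.98, 6.8 and 9.02 in K562+L. It had 51.8, 48.9 and 51 CPM in K562/IM, and 0.705, 0.712 and 0.51 in the labelled K562/IM+L libraries. None of the 4 groups overlapped, so SPRY4 ordered them from K562/IM through K562 and K562+L to the labelled K562/IM+L libraries. It was 1.7-fold lower in K562+L than in K562 (log2 fold change -0.76, SE 0.15, adjusted p = 0.00698), and rose by 1.91 on the log2 scale in K562/IM (SE 0.11, adjusted p = 8.6e-06). It fell by 6.28 in the labelled K562/IM+L libraries against K562/IM (SE 0.14, adjusted p = 1.8e-07) and fell by 4.41 against K562 (SE 0.21, adjusted p = 1.0e-05). Of 13307 genes tested against K562, 17 had a lower log2 fold change than SPRY4.

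The SPRED proteins bind neurofibromin and hold back RAS at the membrane. SPRED1 (chr15:38252326-38357249) had 31.1, 21.5 and 19.7 CPM in K562, and 23.7, 23.8 and 26.9 in K562+L. It had 30.7, 33.1 and 29.6 CPM in K562/IM, and 2.76, 2.68 and 4.9 in the labelled K562/IM+L libraries. The labelled libraries stood below all others, and K562 replicate 1 lay above the K562/IM minimum. SPRED1 fell by 3.14 on the log2 scale against K562/IM (SE 0.25, adjusted p = 2.7e-05) and fell by 2.82 against K562 (SE 0.29, adjusted p = 2.1e-04). Its log2 fold changes of 0.04 in K562+L (95% interval -0.35 to 0.43) and 0.37 in K562/IM (-0.02 to 0.76) against K562 did not pass.

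SPRED2 (chr2:65310851-65432637) had 58.6, 49 and 41.7 CPM in K562, and 56.2, 51.1 and 62 in K562+L. It had 59.1, 56.9 and 58.1 CPM in K562/IM, and 16.8, 17.7 and 20.5 in the labelled K562/IM+L libraries. Only the labelled libraries were apart, below the other 9. SPRED2 fell by 1.63 against K562/IM (SE 0.095, adjusted p = 6.7e-06) and fell by 1.46 against K562 (SE 0.15, adjusted p = 1.8e-04) on the log2 scale. Its values of 0.18 in K562+L (95% interval -0.14 to 0.50) and 0.22 in K562/IM (-0.06 to 0.50) did not pass. Without K562 replicate 1, the K562 library with the highest SPRED1 and SPRED2, the K562/IM comparison passed for SPRED1 (log2 fold change 0.57, adjusted p = 5.7e-04) and for SPRED2 (0.32, adjusted p = 0.00938), the lowest of 14 alternatives for each (up to 0.248 and 0.376).

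ETV4 and ETV5 are ETS factors of the PEA3 group, whose transcription follows ERK activity through relief of the repressor CIC. ETV4 (chr17:43527844-43579620) had 70.6, 84.1 and 88.9 CPM in K562, and 38.3, 38.9 and 36.9 in K562+L. It had 75.1, 77 and 75.7 CPM in K562/IM, and 1.95, 2.27 and 2.13 in the labelled K562/IM+L libraries. K562 and K562/IM overlapped, K562+L lay below both, and the labelled libraries lay far below K562+L. ETV4 was lower in K562+L than in K562 by a log2 fold change of -1.09 (SE 0.1, adjusted p = 4.4e-04). The labelled K562/IM+L libraries were lower still, where ETV4 fell by 5.14 against K562/IM (SE 0.09, adjusted p = 1.1e-07) and fell by 5.28 against K562 (SE 0.14, adjusted p = 3.1e-06). K562/IM differed from K562 by -0.10 (95% interval -0.32 to 0.12), which did not pass.

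ETV5 (chr3:186046308-186110318) had 35.1, 33.5 and 33 CPM in K562, and 19.8, 22.4 and 23.1 in K562+L. It had 30.1, 28.9 and 30.2 CPM in K562/IM, and 0.503, 0.642 and 0.181 in the labelled K562/IM+L libraries. No groups overlapped, with K562 highest and the labelled libraries lowest. ETV5 was 1.56-fold lower in K562+L than in K562 (log2 fold change -0.64, SE 0.094, adjusted p = 0.00224). ETV5 fell by 6.08 in the labelled K562/IM+L libraries against K562/IM (SE 0.36, adjusted p = 7.3e-06) and fell by 6.30 against K562 (SE 0.4, adjusted p = 2.5e-05). Only 5 of the 13307 genes tested against K562 had a lower log2 fold change than ETV5, and 7 had a lower one than ETV4. In K562/IM against K562, ETV5 had a log2 fold change of -0.19 (95% interval -0.36 to -0.02) and missed the threshold at an adjusted p of 0.0517. It passed with DESeq2 (-0.21, adjusted p = 0.0132), in edgeR with DESeq2's size factors (adjusted p = 0.0331), without K562 replicate 3 (adjusted p = 0.0416) and without K562 replicate 1 (adjusted p = 0.0284). Over 14 alternatives its adjusted p ran from 0.0132 to 0.462. ETV4 passed without K562 replicate 1 alone (-0.22, adjusted p = 0.0148), in a range up to 0.738. ETV5 shares 164 exonic bases with DGKG on the same strand, and ETV4 shares 68 with DHX8 on the other, so some reads could belong to those genes.

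EGR1 (chr5:138465490-138469315) is a zinc finger factor and an immediate early gene, and its 2 CArG boxes are printed above. It had 387, 330 and 320 CPM in K562, and 183, 137 and 209 in K562+L. It had 478, 468 and 463 CPM in K562/IM, and 156, 82.3 and 74.5 in the labelled K562/IM+L libraries. K562/IM lay above K562 and K562 above both lycorine groups, which overlapped through replicate 1 of the labelled libraries. EGR1 was 1.96-fold lower in K562+L than in K562 (log2 fold change -0.97, SE 0.16, adjusted p = 0.00322). It rose in K562/IM by 0.44 (SE 0.085, adjusted p = 0.003), which did not pass with all 12 libraries in 1 fit, where the log2 fold change was again 0.44 (adjusted p = 0.135, the highest of 14 alternatives, from 1.1e-05). In the labelled K562/IM+L libraries it fell by 2.15 against K562/IM (SE 0.27, adjusted p = 2.8e-04) and fell by 1.75 against K562 (SE 0.28, adjusted p = 0.0017).

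The effect of lycorine in the resistant line, as labelled, was set against its effect in the parent line by an interaction term over 12 libraries, the difference between the log2 fold change in K562/IM and that in K562. It was negative and passed for 8 of the 9 genes tested. Of 13995 genes, 61.7% passed in either direction, 4437 with a negative and 4191 with a positive value. SPRY4 had the value farthest from 0 (-5.54, SE 0.21, adjusted p = 3.4e-09), followed by ETV5 (-5.46, SE 0.34, adjusted p = 1.3e-07) and ETV4 (-4.07, SE 0.13, adjusted p = 9.7e-10). DUSP6 did not pass, at -1.22 (95% interval -4.96 to 2.52), and without K562+L replicate 3 its value was 4.04 (adjusted p = 0.226). Whether the erythroid genes, which were higher in the same labelled libraries, have a part in this difference was not tested.

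Compared between genes, levels are given per kilobase of merged exon length. EGR1 was the most abundant of the 10 in every group, with a mean of 110 CPM per kilobase ± 11.5 (SD, n = 3) in K562, 56.3 ± 11.7 in K562+L, 150 ± 2.48 in K562/IM and 33.2 ± 14.3 in the labelled K562/IM+L libraries. ETV4 came next in K562, at 22.5 ± 2.64 CPM per kilobase, and SPRED2, ETV5, SPRY2, SPRED1, SPRY4, DUSP5 and DUSP6 followed in that order. In K562 the ranges of neighbours overlapped for SPRY2 and SPRED1 alone. In K562/IM, SPRY2 (9.75 ± 0.627) and SPRY4 (7.71 ± 0.231) stood above ETV5 (5.12 ± 0.126), and no neighbours overlapped. In the labelled K562/IM+L libraries, ETV4 dropped to the fifth place at 0.587 ± 0.045 CPM per kilobase and ETV5 to the eighth at 0.0762 ± 0.0408. There the ranges of ETV4 and SPRED1 overlapped, and so did those of SPRY4, ETV5, DUSP6 and DUSP4 from each to the next. In K562+L, SPRED2 (10.9 ± 1.06) and ETV4 (10.6 ± 0.281) overlapped, as did SPRED1 and SPRY2, SPRY4 and DUSP5, and DUSP6 and DUSP4. Per kilobase of the longest transcript, ETV4 (mean 15.7) came above SPRED2 (13.8) in K562+L.

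Ratios of related genes within a library do not depend on how libraries are scaled. The ratio of SPRY4 to SPRY2, per kilobase, was 0.545 ± 0.103 (SD, n = 3) in K562, 0.514 ± 0.0848 in K562+L, 0.793 ± 0.0705 in K562/IM and 0.0479 ± 0.00903 in the labelled K562/IM+L libraries. K562 and K562+L overlapped in this ratio, K562/IM was higher in every library, and the labelled libraries were lower in every library. SPRED1 to SPRED2 was 0.3 ± 0.0293, 0.275 ± 0.0139, 0.335 ± 0.0243 and 0.115 ± 0.0294 in the groups in the same order. The labelled libraries lay below all others. K562+L (up to 0.29) lay below K562/IM (from 0.318), and K562 overlapped both. ETV4 to ETV5 was 3.87 ± 0.567, 2.83 ± 0.27 and 4.11 ± 0.153 in the first 3 groups. In the labelled K562/IM+L libraries it was 6.23, 5.7 and 18.9, the last from the library in which ETV5 had 0.181 CPM.

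**Figure D4:**
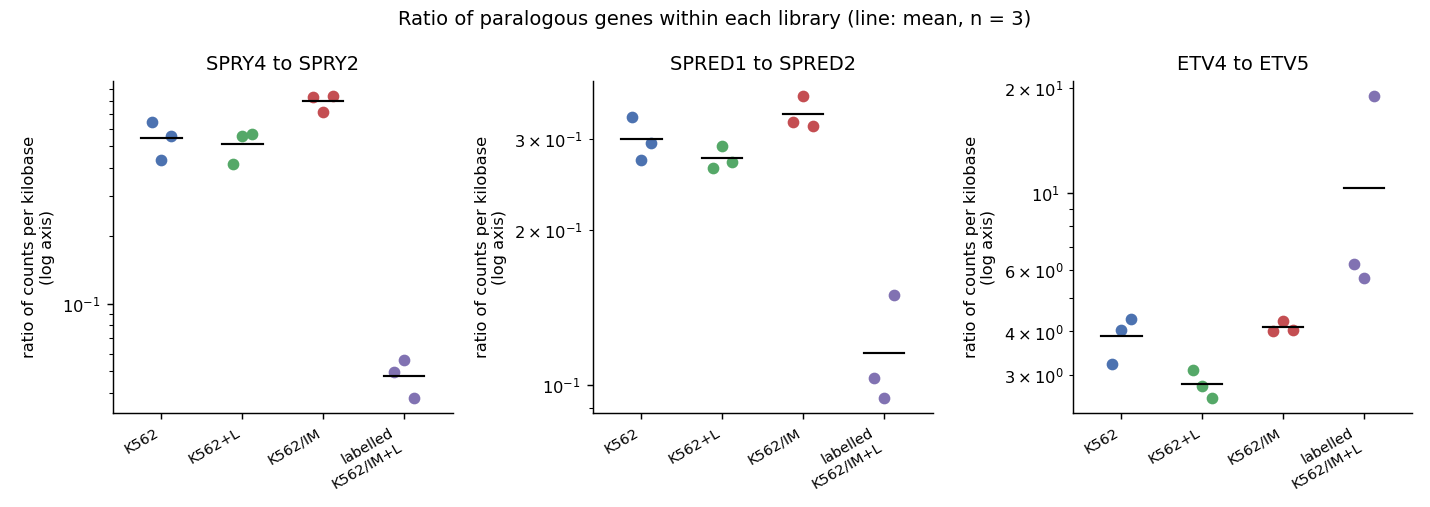
Ratios of SPRY4 to SPRY2, SPRED1 to SPRED2 and ETV4 to ETV5, in counts per kilobase, within each library (points; log axes) with the mean of 3 libraries as a line. The labelled K562/IM+L libraries lie below all others in the first and second ratio and above all others in the third, where 1 library at 18.9 lies far from the other 2.

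Other genes of the pathway were read from 3 lists. The first held 18 paralogues of the 10 genes and their regulators, among them the repressor CIC, SRF and the ETS factors ELK1, ELK3 and ELK4. In K562+L, 4 of 17 tested were higher and 2 lower (all genes: 18.2% higher, 19% lower), with a median log2 fold change of -0.08. SPRED3 (1.40) and CIC (0.67) rose, and DUSP9 (-0.64) and NAB2 (-0.45), a corepressor of EGR factors, fell. In K562/IM, 15 of 18 were higher and 2 lower (all genes: 30.1% and 27.1%), with a median of 0.74. EGR3 (3.52), SPRY3 (2.80) and EGR2 (2.29) were among those that rose, and EGR4, which had no count in K562 and 21, 13 and 12 counts in K562/IM, was at least 13-fold higher in TMM-scaled CPM (3 counts over the K562 group as the floor), with the median still 0.74 when EGR4 was set to that bound.

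Of these 18 genes, 12 were lower in the labelled K562/IM+L libraries and 2 higher than in K562/IM (all genes: 33.6% lower, 33.2% higher), and the median log2 fold change was -0.71. ETV1 (-5.50), the third factor of the PEA3 group, fell with EGR3 (-3.09), ELK3 (-2.35) and SPRY1 (-2.02). Against K562, 5 of 17 were lower and 3 higher (all genes: 27.8% and 28.2%), with a median of -0.11. ETV1 fell by 4.86, from a mean of 27.2 CPM ± 4.43 to 0.942 ± 0.221 (SD, n = 3). SPRY1 (-1.59) and DUSP9 (-1.53) also fell, and SPRED3, the third SPRED gene, rose by 2.97, from 0.349 ± 0.0828 to 2.79 ± 0.658 CPM.

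The second list held 29 genes of the cascade itself, from the adaptors GRB2 and SHC1 to the ERK genes and the RSK kinases below them. In K562+L, 8 of 27 tested were higher and 5 lower (median log2 fold change 0.15), where 18.2% of all genes were higher and 19% lower. The small GTPase RRAS (-1.18) and the kinase RPS6KA1 (-0.69) fell, and NF1 (0.89), which encodes neurofibromin, and SHOC2 (0.64), a scaffold for RAF activation, rose. In K562/IM, 10 of 27 were higher and 7 lower (median 0.08, all genes 30.1% and 27.1%). RRAS (1.46), the adaptor GAB2 (1.19) and NF1 (0.82) rose, and HRAS fell by 1.08. In the labelled K562/IM+L libraries, 14 of 27 were lower and 5 higher than in K562/IM (median -0.28, all genes 33.6% and 33.2%), where GAB2 (-1.75), RPS6KA3 (-1.58) and NF1 (-1.55) fell, and the MEK gene MAP2K2 (1.30) rose. Against K562, 10 of 27 were lower and 4 higher (median -0.26, all genes 27.8% and 28.2%), where MRAS (-1.35) and RPS6KA3 (-1.02) fell, and GAB1 (1.03) and MAP2K2 (0.93) rose.

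The third list held 11 other genes known to respond to ERK, all of them tested. In K562+L, 4 were lower and 2 higher (median -0.07, all genes 19% and 18.2%). CCND1, which encodes cyclin D1, fell by 2.26, from a mean of 20.4 CPM ± 1.88 to 4.26 ± 0.364 (SD, n = 3). The AP-1 gene JUNB (-0.76) and EPHA4 (-2.29, on 120 counts in all of K562 and 28 in K562+L) also fell, and PHLDA1 rose by 1.61. In K562/IM, 7 were higher and 1 lower (median 0.57, all genes 30.1% and 27.1%). PHLDA1 (3.97), IER3 (2.58) and CCND1 (1.61) rose, and EPHA4 fell by 3.77 on 10 counts in K562/IM.

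In the labelled K562/IM+L libraries, 7 of these 11 were lower and 1 higher than in K562/IM (median -1.05, all genes 33.6% and 33.2%). CCND1 fell by 4.82, from 62.6 CPM ± 2.31 to 2.18 ± 0.259. PHLDA1 (-4.40) and the AP-1 gene FOSL1 (-2.98) also fell, and EPHA4 rose by 4.10. Against K562, 6 were lower and 1 higher (median -0.47, all genes 27.8% and 28.2%). CCND1 (-3.25), FOSL1 (-1.88) and MYC (-1.33) fell, and JUNB rose by 0.87. The named genes of the 3 lists are those that passed with the largest log2 fold changes in size, up to 4 in each list and comparison.

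**Figure D5:**
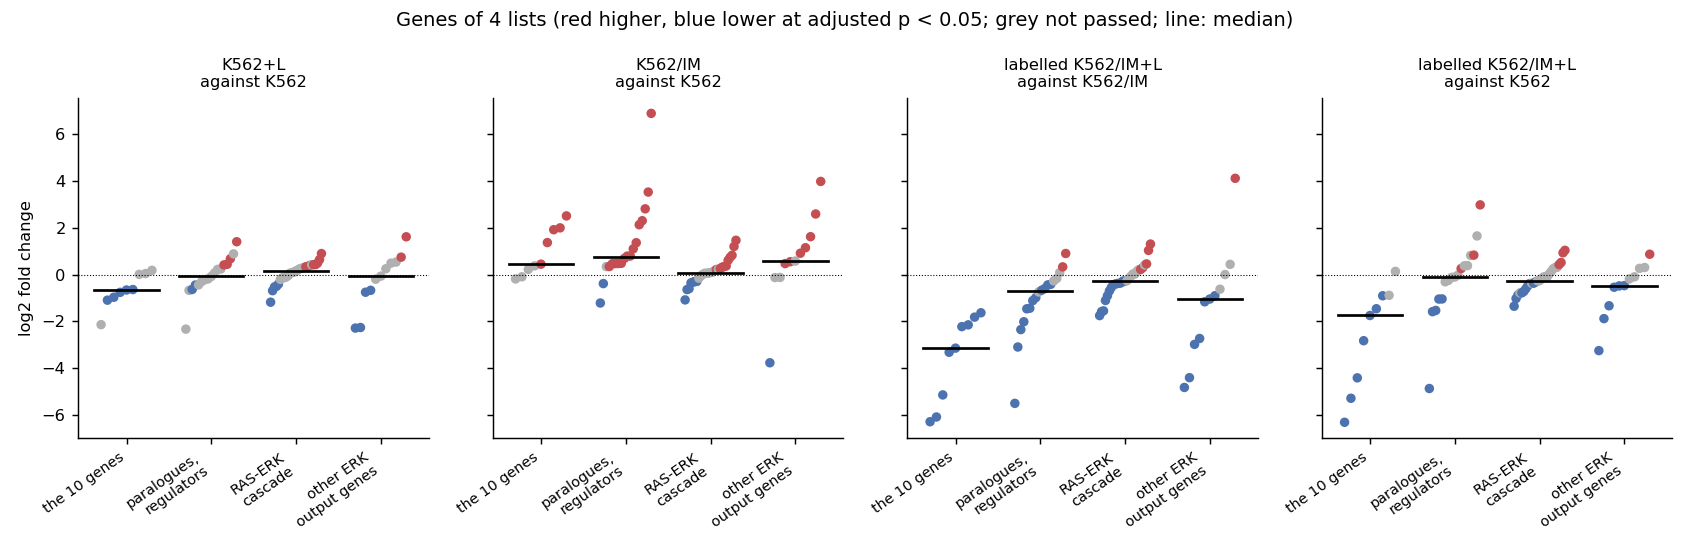
Log2 fold changes (vertical axis) of the tested genes of 4 lists in 4 comparisons, each point 1 gene, red or blue where the gene passed and grey where it did not, with the list's median as a line. The medians of the 10 genes (9 tested) are -0.66, 0.44, -3.14 and -1.75 from left to right, and those of the RAS-ERK cascade lie between -0.28 and 0.15.

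The genes whose pattern was most like each of the 9 were found by Pearson's correlation of log2 CPM over the 12 libraries, among 13957 genes. The 12 points fall into 4 groups and share their libraries, so these values describe the shape of the 4 group levels. SPRY4 was nearest to CD69 (r = 0.995), the death receptor gene TNFRSF10B (0.993) and FOSL1 (0.991), a gene of the third list. SPRY2 was nearest to FEV (0.985), WIPF1 (0.982) and PLCH1 (0.982), and DUSP5 to BFSP1 (0.967), TSPEAR (0.965) and CD55 (0.963). HAUS6 (0.992) and ETV1 (0.992) were among the nearest to SPRED1, and SPRED2 was nearest to NT5DC3 (0.996), HAUS6 (0.994) and UBP1 (0.993), so that both SPRED genes had HAUS6 among their nearest. ETV4 was nearest to PRR3 (0.996) and to the replication and mitosis genes MCM3 (0.994) and TRIP13 (0.993), and ETV5 to LAPTM4B (0.991), RBBP9 (0.989) and FABP5 (0.988). EGR1 was nearest to SH2D1B (0.967), S100A11 (0.949) and SPN (0.944). DUSP6, at the lowest counts, had the lowest values, with PITPNM3 (0.940), PRAG1 (0.918) and PIK3C2B (0.918).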

How the data were processed

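Poly(A) RNA of 12 libraries was sequenced. The authors deposited whole-number counts per gene symbol, one column per library, not normalized. The submitters' processing notes name FastQC, STAR, StringTie, DESeq2 and the build hg38. Versions, the counting tool, the annotation and the strand setting were not given in the sources used here. Of 23289 values from 1 to 25, 67.9% were a multiple of 4 or 1 above it (52% of whole numbers in that range are), so counting noise may be larger than the totals give.

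Libraries were grouped by the labels' treatment field. In R 4.3.3, edgeR 4.0.16 (filterByExpr, minimum count 10, TMM, quasi-likelihood test, Benjamini-Hochberg adjustment) was fitted to the 6 libraries of each pair, or to all 12 for the interaction. DESeq2 1.42.0, other scalings, filters and counts divided by 4 were alternatives. A fold against a group at 0 used a floor of 3 counts. Positions and lengths came from GENCODE release 29 (GRCh38), in which 18989 of 19447 symbols matched 1 gene. The steps were tested on simulated data.

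Named genes are the 10, up to 4 passing genes per list and comparison with the largest log2 fold change in size, and the 3 nearest patterns of each, 1 of which is not reported here. The genes and lists were chosen with earlier results of these data known, and the motifs after promoter sequences had been seen.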

Additional observations from a re-analysis of the deposited data

Results flagged for a closer look

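The change with lycorine differed between the lines, as labelled, for 8 of the 9 genes tested, by the interaction term in edgeR's quasi-likelihood test over 12 libraries (61.7% of all genes passed). Each value is the log2 fold change in K562/IM minus that in K562. The feedback genes had -1.84 (SE 0.37, adjusted p = 0.00103) for DUSP5, -1.59 (SE 0.2, adjusted p = 3.0e-05) for SPRY2, -5.54 (SE 0.21, adjusted p = 3.4e-09) for SPRY4, -3.21 (SE 0.32, adjusted p = 4.6e-06) for SPRED1 and -1.84 (SE 0.17, adjusted p = 3.4e-06) for SPRED2. The transcription factors had -4.07 (SE 0.13, adjusted p = 9.7e-10) for ETV4, -5.46 (SE 0.34, adjusted p = 1.3e-07) for ETV5 and -1.20 (SE 0.34, adjusted p = 0.00861) for EGR1. All 8 rest on the labelled K562/IM+L libraries, whose erythroid genes were also higher, and the part of these was not tested.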

How the results depend on the processing

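Of 668 log2 fold changes of the genes under alternatives, 656 kept their side of the threshold, 8 came to pass, 4 no longer passed, and none that passed changed direction. Among those that kept their side, 12 values that passed in neither setting changed sign: DUSP5 in K562+L or the labelled K562/IM+L libraries against K562 (-0.15 to -0.02), SPRED1 in K562+L (-0.09 to -0.02), and DUSP6 in the labelled libraries against K562 (0.11) and in the interaction (4.04). The 8 values that came to pass and the 4 that no longer passed were in the comparisons of K562+L and K562/IM with K562. None was in those of the labelled K562/IM+L libraries or in the interaction. The count of the 9 genes passing in K562/IM against K562 was 5. It was 3 with all 12 libraries in one fit, and ran from 5 to 9 when each library was left out, with 9 (7 higher, 2 lower) without K562 replicate 1. Over all genes, 7661 of 13406 tested passed in this comparison, and 7646 of 13995 with all 12 libraries in one fit. Without K562 replicate 1 more of all genes passed as well, 8834 of 13671. The genes passing in K562+L against K562 numbered 4821, and 3126 under a replicate block. Leaving out each library gave 2871 to 5823, with 2871 without K562 replicate 2, 2971 without K562+L replicate 1 and 3058 without K562+L replicate 3. Same-numbered libraries did not deviate together (correlations from -0.23 to 0.08), so no pairing by number was detected. With 3 libraries per group, these correlations cannot show that the libraries were unpaired. Of 6 libraries, 0 to 2 per comparison correlated best with their own number. Upper-quartile scaling moved the median log2 fold change of all genes by 0.15 in the labelled K562/IM+L libraries against K562, and by 0.128 in the interaction. On raw totals 9 of 36 mean CPM values moved by more than 1 SD, and with the longest transcript 19 of 36 CPM per kilobase values did. Depth limits DUSP6, whose libraries held 0 to 185 counts.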
